A study of Mus musculus with 13 samples.

Results

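The slit diaphragm and foot process genes examined here were Nphs1, Synpo, Podxl, Cd2ap, Magi2, Ptpro, Actn4, Plce1 and Inf2. They are 9 of the 55413 genes of the mouse annotation (GENCODE M21, build mm10), and they were listed by name with earlier results of these data known. For each gene, all open chromatin regions (peaks) of the single nuclei ATAC-seq peak list that overlapped the gene body or the 2 kb upstream of its start were taken, which gave 326 peaks of 300755. Single nuclei ATAC-seq (snATAC-seq) cuts open chromatin with a transposase in each nucleus and records where the cuts fall, and the deposited matrix holds, for every nucleus and peak, whether at least 1 fragment was found there. The 5 snATAC-seq samples were whole kidneys of mice at P0 (2 samples), P21 (1 sample) and P56 (2 samples), with no treatment or genetic change named, and P21 and P56 were treated as 1 adult stage. The labels give no strain and no number of animals a sample. The newborn kidneys were lysed in a smaller volume of buffer and were not described as perfused, whereas the older mice were perfused first, so stage and preparation cannot be told apart.

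Podocytes are the epithelial cells that cover the capillaries of the glomerulus, and their interlocking foot processes are bridged by the slit diaphragm, a cell junction through which plasma is filtered. Nephrin, the product of Nphs1, spans the slit and is tied to the actin of the foot process by adaptor proteins, and inherited loss of many of these proteins causes nephrotic syndrome. Among the members, Nphs1 encodes the slit's adhesion molecule, Cd2ap and Magi2 encode scaffold proteins beneath it and Plce1 encodes a phospholipase of podocyte signalling. Podxl encodes the charged sialomucin of the apical surface and Ptpro a receptor tyrosine phosphatase of the same surface. Synpo encodes an actin-binding protein of the foot process, Actn4 an actin crosslinker found in many cell types, and Inf2 a formin that assembles and severs actin filaments.

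In mm10 the genes lie at chr7:30458315-30487223 on the plus strand (Nphs1, ENSMUSG00000006649.17), chr17:42792951-42876665 on the minus strand (Cd2ap, ENSMUSG00000061665.7), chr5:19227036-20704792 on the plus strand (Magi2, ENSMUSG00000040003.18) and chr19:38481109-38785030 on the plus strand (Plce1, ENSMUSG00000024998.17). Podxl (ENSMUSG00000025608.9) is at chr6:31519488-31563981 on the minus strand and Ptpro (ENSMUSG00000030223.14) at chr6:137252319-137463233 on the plus strand. Synpo (ENSMUSG00000043079.17) is at chr18:60593973-60660142 and Actn4 (ENSMUSG00000054808.15) at chr7:28893248-28962340, both on the minus strand, and Inf2 (ENSMUSG00000037679.9) is at chr12:112588784-112615557 on the plus strand. Magi2, at 1477757 bp, is the longest and held 112 of the 326 peaks. Of the peaks, 4 of Nphs1, 4 of Magi2, 17 of Actn4 and 2 of Plce1 lay in the window of another annotated gene too, which for Actn4 was Gm44699 in all 17.

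The authors' annotation placed 27652 of 28316 nuclei in 13 named clusters, and 912 of them in the podocyte cluster. P0 samples 1 and 2 held 307 and 362 podocyte nuclei, the P21 sample 47, and P56 samples 1 and 2 held 157 and 39. The median podocyte nucleus had between 2613 open peaks (P56 sample 1) and 5017 (P56 sample 2), so raw shares of open nuclei rise and fall with depth, and shares were also computed after each nucleus was thinned to 1000 open peaks. The podocyte markers Wt1, Foxc2, Tcf21, Lmx1b and Clic5 each had their highest level in the podocyte cluster. Of 27834 barcode sequences, 477 occurred in more than 1 sample. A share of 0 allows up to 0.977% and 0.829% of podocyte nuclei in the P0 samples and up to 6.38%, 1.91% and 7.69% in the P21 and P56 samples. Such limits at a share of 0 cover counting error only, whereas each SD is over samples. Each SE comes from a fit across samples or, with the sample as a block, across clusters within samples.

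The sequences below are 300 bases of the plus strand (mm10) from the peak in which podocytes stood furthest above the next cluster, shown for 6 genes to let the regions behind the results be read directly. Letters of sites searched for are in capitals (CAGCTG, the E-box bound by TCF21; TAATTA, bound by LMX1B; and GTTAAT or ATTAAC, bound by HNF1). The Nphs1 window, chr7:30459425-30459724, ends where an annotated Nphs1 transcript starts, the Magi2 window, chr5:19226736-19227035, ends at the gene's start, and the others, chr6:137295241-137295540 for Ptpro, chr19:38528553-38528852 for Plce1, chr17:42841011-42841310 for Cd2ap and chr7:28939636-28939935 for Actn4, are the middles of intronic peaks.
Nphs1: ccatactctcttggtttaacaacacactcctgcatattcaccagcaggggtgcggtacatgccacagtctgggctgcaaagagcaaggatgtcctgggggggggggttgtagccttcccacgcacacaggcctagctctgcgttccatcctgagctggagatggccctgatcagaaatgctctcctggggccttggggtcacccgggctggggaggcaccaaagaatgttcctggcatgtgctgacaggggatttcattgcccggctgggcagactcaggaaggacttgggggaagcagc
Magi2: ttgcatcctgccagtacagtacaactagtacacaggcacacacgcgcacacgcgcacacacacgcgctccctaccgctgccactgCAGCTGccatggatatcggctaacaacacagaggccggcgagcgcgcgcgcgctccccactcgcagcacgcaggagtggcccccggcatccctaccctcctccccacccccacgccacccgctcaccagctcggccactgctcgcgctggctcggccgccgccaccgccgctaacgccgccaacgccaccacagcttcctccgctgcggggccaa
Ptpro: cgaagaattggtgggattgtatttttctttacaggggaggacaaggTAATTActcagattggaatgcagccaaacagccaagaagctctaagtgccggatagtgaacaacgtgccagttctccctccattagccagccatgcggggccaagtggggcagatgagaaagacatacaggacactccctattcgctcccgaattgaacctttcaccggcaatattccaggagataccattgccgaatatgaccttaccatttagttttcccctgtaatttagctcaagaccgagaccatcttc
Plce1: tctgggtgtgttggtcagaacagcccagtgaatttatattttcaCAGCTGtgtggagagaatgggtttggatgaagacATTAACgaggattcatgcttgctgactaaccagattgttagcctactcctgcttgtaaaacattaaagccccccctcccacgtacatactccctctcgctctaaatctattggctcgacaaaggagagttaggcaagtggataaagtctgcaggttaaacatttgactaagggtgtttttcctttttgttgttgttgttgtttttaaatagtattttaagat
Cd2ap: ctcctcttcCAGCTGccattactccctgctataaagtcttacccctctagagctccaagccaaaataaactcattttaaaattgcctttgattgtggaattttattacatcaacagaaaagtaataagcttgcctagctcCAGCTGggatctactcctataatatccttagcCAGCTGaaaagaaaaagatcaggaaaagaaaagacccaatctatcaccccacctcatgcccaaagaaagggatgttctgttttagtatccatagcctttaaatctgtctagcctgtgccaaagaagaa
Actn4: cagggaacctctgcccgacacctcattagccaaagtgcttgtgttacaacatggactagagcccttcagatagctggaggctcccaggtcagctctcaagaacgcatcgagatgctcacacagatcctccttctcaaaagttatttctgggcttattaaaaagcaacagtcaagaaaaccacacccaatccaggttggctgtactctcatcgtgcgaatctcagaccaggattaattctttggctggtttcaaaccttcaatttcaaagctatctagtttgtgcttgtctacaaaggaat
The Plce1 window carried letters of 2 kinds, those of TCF21 and HNF1, the Cd2ap window held CAGCTG 3 times, and the Nphs1 and Actn4 windows held none of the letters searched. A match is a description of the letters and not a bound site.

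Open calls were first summed over all peaks of a gene and given per 10000 open calls of the same cluster and sample. This scales for depth without removing all of its effect, since a call is either open or not. Over the 5 samples together podocytes had the highest mean level of all 13 clusters for each of the 9 genes, but by very different margins. Taken by stage, podocytes were highest for 8 of the 9 genes at P0 and for 7 in the adult, the exceptions being Actn4 at both stages and Synpo in the adult. How many of all genes had their highest level in podocytes was not counted, so these counts of members have no background. Since the clusters were made from the same nuclei, these levels describe the cell types and are no test of them.

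Nphs1 showed the widest margin. Its level in podocytes was 1.37 ± 0.238 (SD, n = 5) open calls per 10000, which was 5.17 times that of the proximal convoluted tubule (PCT), the next cluster, at 0.266 ± 0.153. Ptpro followed, with a podocyte level of 3.12 ± 0.649 against 1.09 ± 0.191 in nephron progenitors, and Plce1, with 2.47 ± 0.977 against 1.195 ± 0.263 in stroma 1. The margin differed with stage, from 3.09 times the next cluster at P0 to 8.996 times in the adult for Nphs1, from 2.22 to 3.44 times for Ptpro, and from 1.08 to 2.60 times for Plce1, so that Plce1 had hardly any margin at P0.

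A middle group was formed by Cd2ap, Inf2, Podxl and Magi2. Cd2ap had a podocyte level of 0.869 ± 0.344 against 0.556 ± 0.0352 in intercalated cells, and Inf2 1.02 ± 0.0961 against 0.695 ± 0.0664 in endothelial cells. Podxl was second highest in endothelial cells, where it is also known to be made, with 1.83 ± 0.340 against 2.38 ± 0.318 in podocytes. Magi2 reached 3.70 ± 1.02 in podocytes and 2.90 ± 0.522 in the PCT cluster. Podocytes ranked first in all 5 samples for Nphs1, Podxl, Cd2ap, Magi2, Ptpro and Inf2, and in 4 samples for Plce1.

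The actin genes Synpo and Actn4 had the smallest margins by ratio. Synpo measured 4.11 ± 0.551 in podocytes and 3.98 ± 0.972 in endothelial cells, and podocytes ranked first in 3 of the 5 samples. In the adult samples alone endothelial cells were above podocytes, at 4.61 against 4.41. Actn4 measured 3.52 ± 1.14 in podocytes, 3.44 ± 0.999 in the distal convoluted tubule (DCT) and 3.35 in stroma 1, and podocytes ranked first in 2 samples. Its podocyte mean at P0, 2.30, was below the PCT (2.51), the DCT (2.51) and endothelial cells (2.38), and its adult mean, 4.32, was below stroma 1 (4.49). For Synpo and Actn4, and for Magi2 and Cd2ap as well, the difference between podocytes and the next cluster was smaller than the SD over the 5 samples in podocytes. That SD spans both stages and does not pair clusters within a sample. Within samples, podocytes were first in all 5 for Magi2 and Cd2ap. At the other end, Nphs1 was lowest in endothelial cells (0.0672 ± 0.0267), Ptpro likewise (0.281 ± 0.0868), and Podxl, Plce1 and Actn4 in immune cells.

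**Figure D1:**
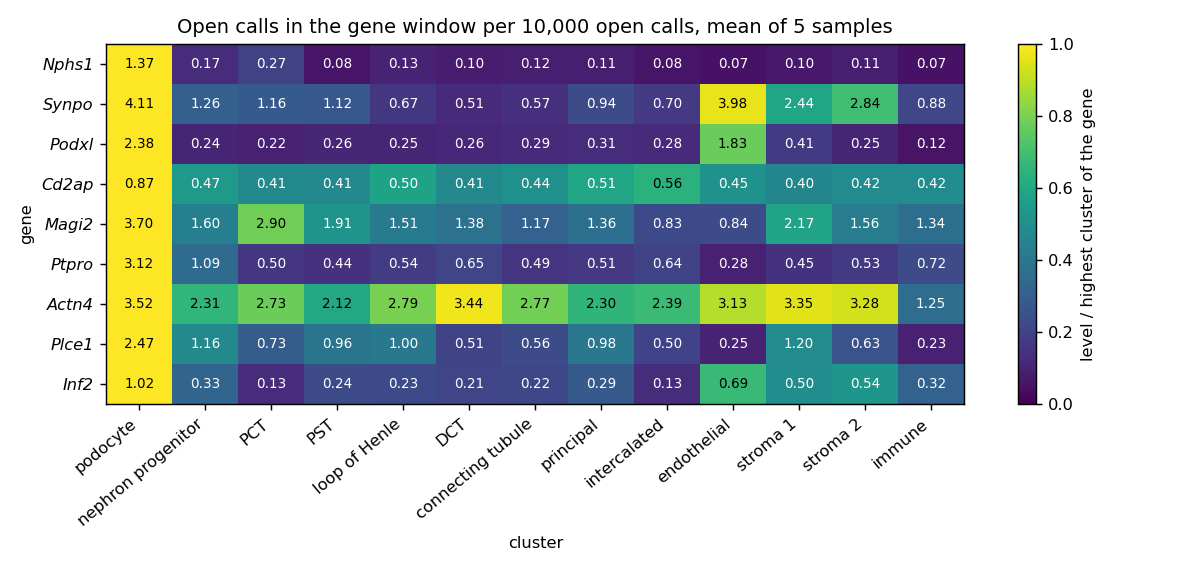
Mean level over the 5 samples of each of the 9 genes (rows) in the 13 clusters (columns), printed in open calls per 10000 open calls and coloured by its ratio to the gene's highest cluster. The podocyte column is highest in every row of these means over both stages, by far for Nphs1 (1.37 against 0.266 in the PCT) and by little for Synpo and Actn4, for which by stage endothelial cells (Synpo, adult) and the PCT and stroma 1 (Actn4, P0 and adult) were higher.

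At the scale of single peaks, podocytes had the highest mean share of open nuclei in 96 of the 326 peaks, where 5.02% of all 300755 peaks had their highest share in podocytes. The count came to 7 of 8 peaks for Nphs1, 12 of 16 for Podxl, 21 of 47 for Ptpro, 4 of 9 for Inf2, 27 of 112 for Magi2, 13 of 61 for Plce1, 2 of 8 for Cd2ap, 6 of 30 for Synpo and 4 of 35 for Actn4. Nphs1 and Podxl thus had podocytes at the top of most of their peaks. After thinning the count was 97 (background 7.79%), and among nuclei with at least 2000 open peaks it was 101 (background 5.71%). Many of the 96 were sparse: 34 had a podocyte share under 2%, 40 led the next cluster by 2 percentage points or more, 23 by 5 or more, and 24 were highest in podocytes in every one of the 5 samples. Against the mean of the 12 other clusters, 48 of the 87 members' peaks that passed the count filter had an estimated podocyte level at least 2-fold higher, whatever their p, where 11.9% of all 77118 peaks fitted did. A peak could pass this filter through its podocyte counts alone, so the 87 do not stand for all members' peaks.

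Nphs1 had its leading peak at chr7:30459410-30460095, over the start of a shorter annotated transcript and inside the long form's gene body. This peak was open in 25.4% and 28.5% of podocyte nuclei in the P0 samples, 27.7% in the P21 sample and 15.3% and 33.3% in the P56 samples. The PCT cluster came next, with 13.7% and 14.0% at P0 but 3.87%, 1.26% and 1.22% in the adult samples. The adult and newborn PCT values did not overlap, and the lowest podocyte value stood above all of them.
After thinning, 6.36% ± 1.48 of podocyte nuclei and 1.25% of PCT nuclei were open there. The peak nearest the long transcript's start, chr7:30457176-30458160, lies 155 bp from it. It was open in 12.8% ± 8.01 of podocyte nuclei against 2.93% ± 3.54 of nephron progenitors. Both peaks also lie in the window of Kirrel2, a nephrin relative next to Nphs1, and cannot be assigned to either gene.

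Of the scaffold genes, Magi2 was most open at its start. The peak chr5:19226254-19227422 covered 5 annotated transcript starts and was open in 28.0% and 36.2% of podocyte nuclei at P0, 40.4% in the P21 sample and 21.7% and 46.2% in the P56 samples, a mean of 34.5% ± 9.76. The DCT cluster followed at 20.6% ± 10.6, so the start was open in many tubule nuclei as well. Cd2ap had no such lead in raw shares at its start, chr17:42875677-42877053, where the proximal straight tubule (PST) had 26.5%, intercalated cells 25.0% and podocytes 24.1%. After thinning podocytes were first there, with 5.68% against 4.49% in the DCT, the next cluster.
The leading peak of Cd2ap was instead the intronic chr17:42840763-42841558, open in 4.89% and 8.84% of podocyte nuclei at P0, 19.1% in the P21 sample and 9.55% and 23.1% in the P56 samples. Every adult sample was above both newborn samples. In stroma 2, the next cluster, the order was the other way round, with 9.47% and 9.61% at P0 and lower values in all adult samples, with 0.291% in P56 sample 2.

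Plce1 had its leading peak in an intron at chr19:38528358-38529047. It was open in 5.54% and 9.94% of podocyte nuclei at P0, 21.3% in the P21 sample and 6.37% and 23.1% in the P56 samples, against a mean of 0.425% in stroma 1, the next cluster. The start of Plce1, chr19:38480831-38481816, was by contrast open in 12.4% ± 3.15 of podocyte and 10.8% ± 5.50 of PST nuclei.

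For the apical surface genes, the leading Podxl peak lay in an intron at chr6:31557316-31558306 and was open in 13.8% ± 4.57 of podocyte nuclei, with 8.28% as the lowest sample and 20.5% as the highest. Endothelial cells had 2.04% ± 0.41 there. At the Podxl start, chr6:31563591-31564488, both were open, at 26.7% ± 11.7 in podocytes and 21.1% ± 9.12 in endothelial cells. The start was therefore shared and the intronic peak was not.
Ptpro had its leading peak 43071 bp into the gene, at chr6:137294845-137295935. Podocyte shares were 21.5% and 30.7% at P0, 25.5% in the P21 sample and 23.6% and 23.1% in the P56 samples. Nephron progenitors had 15.7% and 16.8% at P0 but 0%, 2.22% and 0% in the adult samples. With 52 to 90 nephron progenitor nuclei in an adult sample, a share of 0 allows up to 5.77% in the smallest.

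Among the actin genes, Synpo held the leading peak with the highest thinned share, chr18:60619225-60620014, an intronic peak 40523 bp from the gene's start. It was open in 26.4% and 37.0% of podocyte nuclei at P0, 36.2% in the P21 sample and 22.9% and 38.5% in the P56 samples. Nephron progenitors were next at 3.08% ± 3.62. Thinned podocyte shares ran from 7.89% to 12.2%, with means of 9.84% at P0 and 10.1% in the adult. The most open Synpo peak in podocytes, at 41.9%, was shared with the PST at 30.8% in raw shares (chr18:60606108-60607546). After thinning stroma 2 was the next cluster there, at 7.61% against 8.57% in podocytes. The peak nearest the annotated start, 51 bp away, was open in 1.16% of podocyte nuclei. A peak over 5 internal transcript starts, chr18:60623186-60624723, was open in 16.8% ± 5.72 of them.
The leading Actn4 peak, chr7:28939266-28940305, was open in 9.12% and 14.4% of podocyte nuclei at P0, 29.8% in the P21 sample and 10.2% and 28.2% in the P56 samples, against 7.93% ± 1.84 in the PCT. At the start of Actn4, chr7:28962022-28962893, podocytes were at 17.5%, below the DCT at 36.8%, the connecting tubule at 35.2% and principal cells at 32.2%. Inf2 was most distinct at its start, chr12:112588432-112589489, with 23.2% ± 10.2 in podocytes and 14.0% ± 3.83 in stroma 2.

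**Figure D2:**
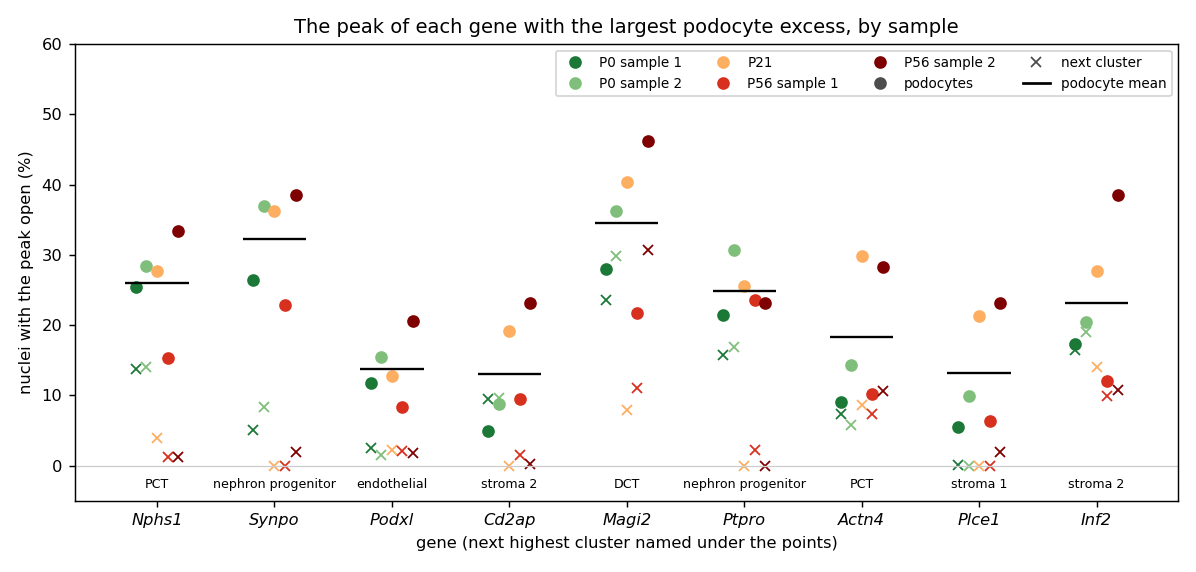
Share of open nuclei (percent) at the leading peak of each gene, in podocytes and in the next highest cluster, with circles for podocytes, crosses for the other cluster and 1 colour a sample. The podocyte points of Synpo and Ptpro lie above those of the next cluster in all 5 samples, and within podocytes P56 sample 1, with the fewest open peaks a nucleus, is often the lowest.

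The same genes also held peaks that were more open in other clusters than in podocytes. For each gene, 1 such peak was picked after its values were seen. In Synpo, chr18:60609318-60610127 was open in 25.7% ± 6.81 of endothelial and 9.76% ± 3.81 of podocyte nuclei, and in Podxl, chr6:31544368-31544948 in 18.1% ± 9.07 and 4.77% ± 2.06. Endothelial cells were thus more open than podocytes at both peaks, as at a sparser one of Inf2 (chr12:112593420-112593870, 6.09% against 1.07%). Podocytes were not closed there: against the mean of the 12 other clusters the Synpo peak was at a log2 difference of 2.58 ± 0.320 (SE) and the Podxl peak at 3.12 ± 0.414.
In Magi2, the tubule was more open at chr5:19933340-19933825, with 19.6% ± 3.28 of PST and 1.38% ± 2.12 of podocyte nuclei. The PCT was above podocytes at a Plce1 peak (chr19:38687356-38687936, 16.0% ± 5.07 against 2.60% ± 4.37) and the DCT at one of Actn4 (chr7:28931459-28932131, 23.1% ± 12.2 against 3.75% ± 3.84). Nphs1 had a single peak that was highest outside podocytes, chr7:30475107-30475574, at 3.79% ± 0.873 in the PCT and at 0 of 912 podocyte nuclei, which allows up to 0.329%. A late intron peak of Ptpro, chr6:137447887-137448351, was open in 2.62% and 3.98% of nephron progenitors at P0 and in 13.5%, 13.3% and 13.2% in the adult samples, the reverse of the order at its leading peak. The markers of this cluster differed with stage as well, with nephron progenitor markers lower and loop of Henle and DCT markers higher in the adult (values are given with the stage comparison), and their part in this peak's difference was not tested.

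**Figure D3:**
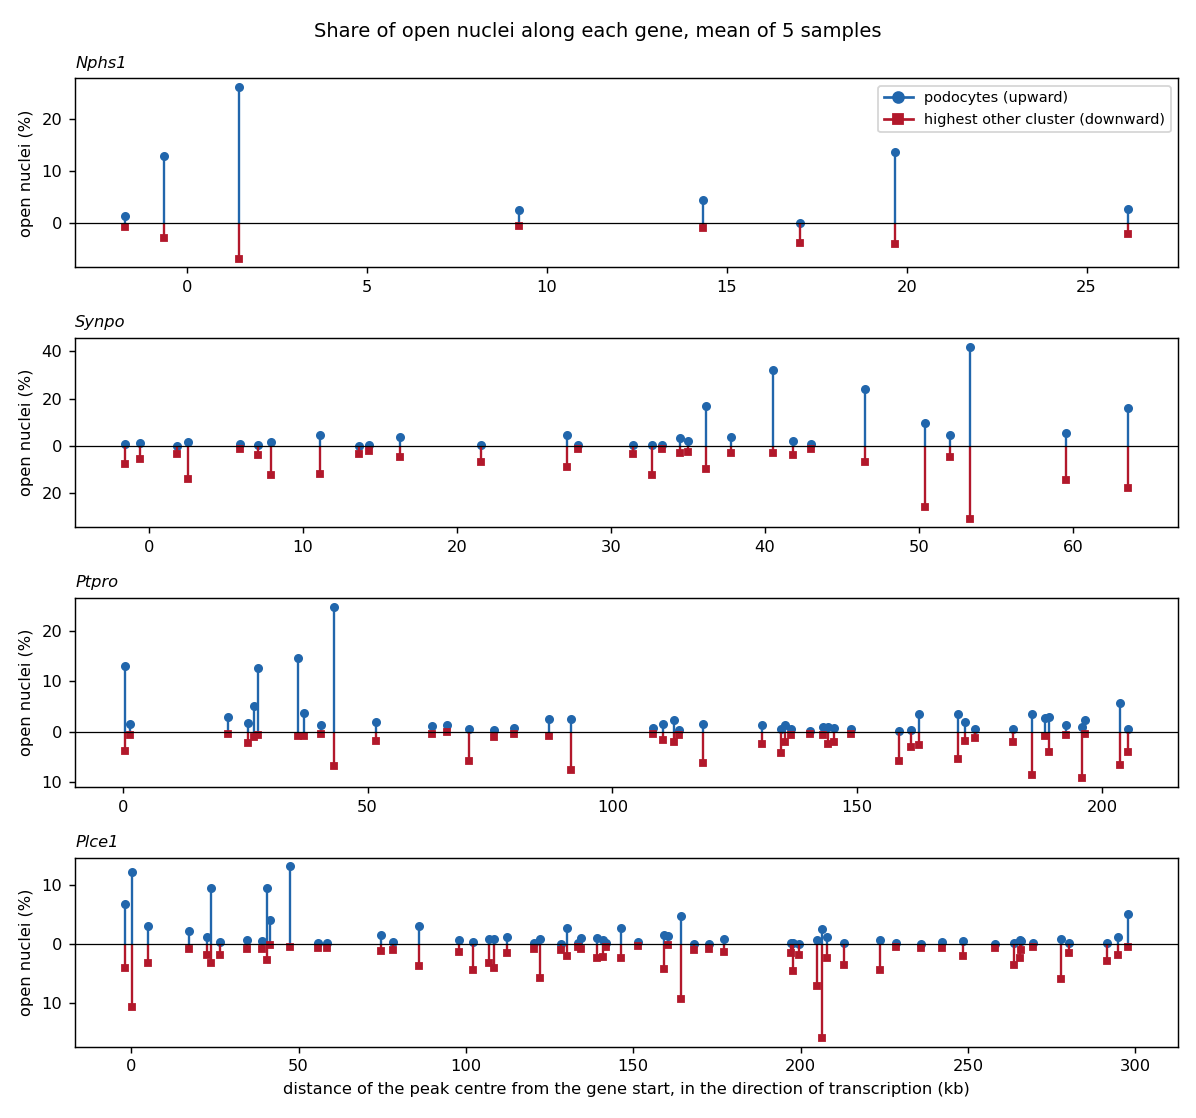
Share of open nuclei (percent, mean of 5 samples) at every peak of Nphs1, Synpo, Ptpro and Plce1 against the distance of its centre from the gene's start (kb), in podocytes (upward) and in the highest other cluster (downward). In Nphs1 the upward line is longer at 7 of 8 peaks, while the open podocyte peaks of Synpo gather in the far part of the gene and those of Ptpro and Plce1 near the start.

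The 96 peaks highest in podocytes were mostly intronic (75 peaks, 78.1%), with 16 over exons and 5 upstream, and 9 covered an annotated transcript start. The other 230 had 195 in introns, 33 over exons and 2 upstream. Their median widths were 367.5 and 402 bp and their median GC contents 47.7% and 45.0%, where all peaks had 46.7%. Letters were searched on both strands in the central 300 bp, or in the whole of a shorter peak. CAGCTG was found in 29 of the 96 (30.2%), in 35 of the other 230 (15.2%) and in 18.6% of all peaks, and in 5 of the 9 leading peaks. TAATTA was found in 10 (10.4%), 18 (7.83%) and 8.31%. GTTAAT was found in 12 (12.5%), 38 (16.5%) and 11.1%. TGTTTAC, the letters of forkhead factors, was in 3 of the 96 and 4.75% of all peaks, and both WT1 forms (GCGGGGGCG and GCGTGGGAG) together in 1 of the 96, with 0.403% and 0.238% of all peaks holding them. CAAAGTCCA, bound by HNF4A, was in none of the 96 and in 0.729% of all peaks. CAGCTG and TAATTA read the same on both strands, and no string of letters searched contains another.

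Over the 65 sums of sample and cluster, the genes whose log2 levels went most with Nphs1 among 28355 were Lmx1b, a podocyte transcription factor (Pearson's r = 0.781), and Raver2 (r = 0.761). These points share libraries and nuclei, so the values are a description. Among the members, Ptpro came 13th (r = 0.700) and Magi2 46th (r = 0.652), whereas Actn4 gave r = -0.0747. The strongest pairs were Synpo with Inf2 (r = 0.759), Synpo with Podxl (r = 0.723) and Nphs1 with Ptpro (r = 0.700), and the most negative was Ptpro with Actn4 (r = -0.258).

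The question of stage was addressed by comparing the podocyte sums of the 2 P0 and 3 adult samples. A positive log2 difference means a higher level in adult podocytes. Of the 9 genes, 3 passed edgeR's quasi-likelihood test at a Benjamini-Hochberg adjusted p under 0.05, all higher in the adult (Plce1, Actn4 and Magi2), where 6.23% of the 16051 genes tested were higher and 5.53% were lower. None was lower. The median over the 9 members was 0.28, against 0.012 over all genes tested.

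Plce1, the phospholipase, had levels of 1.396 and 1.67 open calls per 10000 in the P0 samples and of 3.74, 3.12 and 2.43 in the adult samples. All adult values were above both P0 values, and the log2 difference was 1.02 ± 0.148 (SE, adjusted p = 2.1e-05). Actn4, the crosslinker, went from 2.04 and 2.57 to 4.62, 3.98 and 4.37, with a log2 difference of 0.90 ± 0.136 (adjusted p = 3.1e-05). Here too the groups did not overlap.
Magi2, the scaffold, went from 2.69 and 2.97 to 4.72, 4.87 and 3.26, a log2 difference of 0.64 ± 0.142 (adjusted p = 0.0022). The Magi2 call was lost without P0 sample 1 (adjusted p = 0.136), without P0 sample 2 (0.0714) without P56 sample 1 (0.0564), after thinning (0.210) and with only peaks within 2 kb of the start (0.187), its log2 difference staying at or above 0.38. The calls of Plce1 and Actn4 held without each sample in turn, where leaving out a P0 sample leaves 1 newborn sample that is assumed to vary like the adult ones, but not when only peaks within 2 kb of the start were summed. There the log2 difference of Plce1 was 0.63 (adjusted p = 0.220) and that of Actn4 0.086 (0.943). After thinning the Actn4 call was lost as well (log2 difference 0.74, adjusted p = 0.0583).

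The other 6 genes did not pass. Nphs1 had levels of 1.33 and 1.32 at P0 and of 1.66, 1.03 and 1.53 in the adult samples, so that the adult values lay on both sides of the newborn ones (log2 difference 0.0091 ± 0.169, adjusted p = 0.985). Synpo (0.28, adjusted p = 0.182), Podxl (0.28, 0.241) and Inf2 (0.20, 0.544) had all adult values above both P0 values without passing. Cd2ap (0.49, adjusted p = 0.134) and Ptpro (0.25, 0.337) overlapped between stages, and Cd2ap passed without P56 sample 1 (log2 difference 0.83, adjusted p = 0.0259) and Ptpro without P56 sample 2 (0.45, 0.0394). The exact two-sided permutation test over samples gave p = 0.2 for the genes that did not overlap, which is the smallest that 2 against 3 samples allow. How many of all tested genes had stages that did not overlap was not counted, here or in other clusters, so such an order is a description.

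**Figure D4:**
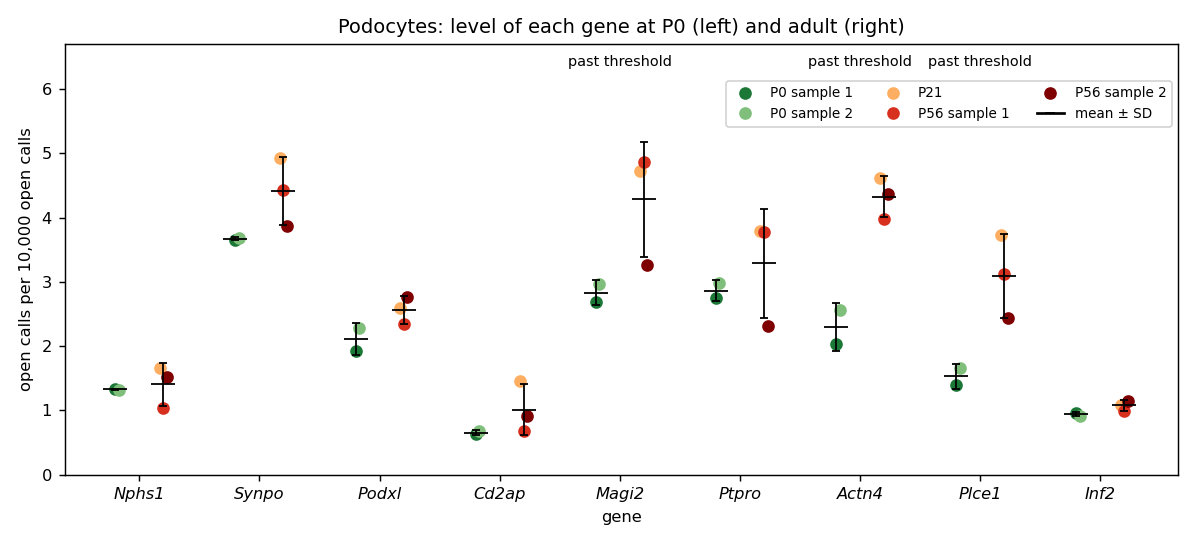
Levels of the 9 genes in podocytes (open calls per 10000 open calls), with 1 point a sample and bars at the mean ± SD of each stage (P0 left, adult right). The adult points of Plce1, Actn4 and Magi2, the 3 genes that passed the test, all lie above the P0 points, and those of Nphs1 lie on both sides of them.

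Marker levels of other cell types moved with stage in the same podocyte sums. Proximal tubule markers (4 of 4 found) had 0.643 to 0.760 open calls per 10000 in the P0 sums and 1.16 to 2.23 in the adult ones, and DCT markers 0.202 to 0.264 and 0.311 to 0.907. Nephron progenitor markers went the other way, from 0.706 to 0.714 down to 0.165 to 0.311. Endothelial markers (0.776 to 0.818, and 0.415 to 1.07) and stroma markers (0.566 to 0.605, and 0.577 to 1.09) overlapped between stages. The podocyte list itself had 8.46 to 9.16 in the P0 and 9.53 to 13.2 in the adult sums. The part of these shifts in the results of Plce1, Actn4 and Magi2 was not tested. Actn4 and Magi2 are themselves open in the tubule, with levels of 3.44 for Actn4 in the DCT and 2.90 for Magi2 in the PCT.

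Of the 326 peaks, 38 had enough open calls in podocytes to be tested, and 6 of them passed, all with a higher share in the adult, where 6.07% of 13523 tested peaks were higher. The 38 passed a filter on counts and do not stand for all members' peaks. They lay in Actn4 (2 peaks), Plce1 (2), Cd2ap (1) and Synpo (1). None of the 3 Nphs1, 5 Podxl, 4 Magi2, 4 Ptpro and 2 Inf2 peaks tested did.
The Actn4 peak chr7:28917423-28918616 had the largest difference, from 5.54% and 5.52% of podocyte nuclei at P0 to 14.9%, 17.2% and 25.6% in the adult samples (log2 difference 2.00 ± 0.342, adjusted p = 7.9e-05). After thinning it had too few calls to be tested, and its shares were then 2.03% and 2.00% at P0 and 7.53% in P56 sample 1, with 0 of 41 nuclei in the P21 sample and 0 of 38 in P56 sample 2. These zeros allow up to 7.32% and 7.89%, so after thinning a stage difference was neither shown nor excluded at this depth. It was more open still in stroma 2, at 28.2%. In Synpo, chr18:60613259-60614024 went from 16.0% and 19.6% to 29.8%, 24.2% and 30.8% (log2 difference 0.86 ± 0.224, adjusted p = 0.0078), with nephron progenitors next at 7.01%. After thinning the log2 difference of the Synpo peak was 0.24 (adjusted p = 0.934).
The leading Cd2ap peak described above had a log2 difference of 1.26 ± 0.352 (adjusted p = 0.0146), although the gene as a whole did not pass. In Plce1, chr19:38504826-38505211 went from 3.26% and 4.97% to 12.8%, 6.37% and 20.5% (log2 difference 1.54 ± 0.442, adjusted p = 0.0174). Over all peaks, 821 of 13523 were higher with all 5 samples, fewer were when a P0 sample was left out, and 1156 of 22702 were without the P21 sample. The number of members' peaks called depended on single samples, with 1 call without P0 sample 2, 2 without P0 sample 1 and 3 without the P21 sample.

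Other genes of the podocyte and its foot processes were taken from a list of 43, of which 42 were tested. In adult podocytes 14 of them were higher and 2 lower, where 6.23% and 5.53% of all tested genes were, with a median log2 difference of 0.33 over the list. The largest was Myo1e, a myosin of the foot process (1.49 to 3.70 open calls per 10000, log2 difference 1.32 ± 0.136, adjusted p = 7.3e-08), followed by Tns2 (0.84 ± 0.147, 0.00021), Clic5 (0.83 ± 0.142, 0.00015) and Arhgap24 (0.69 ± 0.127, 0.00033). The 2 that were lower were Kirrel3, a nephrin relative (-0.53), and Magi1, a relative of Magi2 (-0.44). The 16 calls became 2 without P0 sample 1, 5 without P0 sample 2, 7 without the P21 sample, 7 without P56 sample 1, 5 with DESeq2 and 3 after thinning. Calls over all genes, 1000 higher and 887 lower of 16051 tested, fell as well. They were 283 and 134 with DESeq2 and 85 and 95 of 6781 after thinning. Without the P21 sample they were 745 and 548 of 18982, and without P56 sample 1 752 and 629 of 18245. Without either P0 sample they also fell. The tubule and nephron progenitor marker shifts given above lie in the same podocyte sums, and their part was not tested.

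Outside podocytes the members differed with stage in both directions. Over the 12 other clusters, 45 combinations of gene and cluster passed, each fitted within its cluster. By cluster, the members called of those tested, with the percent of all tested genes called in either direction in that cluster, were 5 of 9 in the connecting tubule (25.8%), 2 of 7 in the DCT (6.5%), 5 of 9 in endothelial cells (26.4%), 0 of 7 in intercalated cells (1.52%), 7 of 9 in the loop of Henle (52.9%) and 5 of 9 in nephron progenitors (40.0%). In the rest they were 6 of 9 in principal cells (31.1%), 4 of 9 in the PCT (28.7%), 1 of 9 in the PST (13.4%), 0 of 5 in immune cells (0.0291%), 4 of 8 in stroma 1 (31.2%) and 6 of 9 in stroma 2 (38.4%). Stage calls were thus common among all genes in most of these clusters. In each of the 12 clusters fewer of all genes were called when a P0 sample was left out. Without P0 sample 1 the 45 calls became 17 and without P0 sample 2 they became 24. The calls that held without either P0 sample were 3 of 5 for Nphs1, 4 of 6 for Ptpro, 2 of 4 for Inf2, 4 of 8 for Actn4, 1 of 7 for Synpo, 1 of 6 for Podxl, 1 of 6 for Magi2, 1 of 2 for Plce1 and 0 of 1 for Cd2ap.

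Actn4 was the gene that rose most widely. It was higher in the adult in 8 of 12 clusters and lower in none, with log2 differences from 0.016 in the PST to 1.31 in stroma 1, where it went from 1.54 and 1.76 to 4.32, 4.54 and 4.60. The change of Actn4 was therefore not one of podocytes alone. Of the clusters called, DCT markers were also higher in the adult in all but principal cells, where the stages overlapped (0.424 to 0.482 and 0.326 to 0.851 open calls per 10000). Their part in the rise of Actn4 was not tested.
Nphs1 went the other way, and was lower in the adult in 5 of the 8 clusters in which it was tested. In nephron progenitors its level was 0.373 and 0.343 at P0 and 0.0432, 0.0609 and 0.0543 in the adult samples (log2 difference -2.87 ± 0.472), which rest on 1, 2 and 2 open calls in the adult. In the loop of Henle it was 0.241 and 0.248 against 0.0704, 0.0599 and 0.0434 (-2.08 ± 0.276), and in the PCT 0.411 and 0.448 against 0.2004, 0.137 and 0.132 (-1.33 ± 0.195). In none of the 3 clusters did the stages overlap.
Ptpro was likewise lower in the adult in 6 of 12 clusters, by most in the loop of Henle (-1.67 ± 0.243) and stroma 2 (-1.55 ± 0.177), and Inf2 in 4 of 9, by most in nephron progenitors (-1.79 ± 0.302). The podocyte marker list, which holds none of the 9 members, was also more open at P0 in some of these clusters. It had 4.88 to 5.09 open calls per 10000 in newborn and 1.12 to 1.55 in adult nephron progenitors, 2.56 to 2.85 and 0.997 to 1.33 in the loop of Henle, and 1.88 to 1.92 and 1.48 to 1.58 in the PCT. The list was higher in adult endothelial cells (2.25 to 2.46 and 2.90 to 3.49) and overlapped between stages in the PST (1.85 to 1.98 and 1.19 to 1.89). The nephron progenitor cluster's own markers moved too, with nephron progenitor markers at 1.33 open calls per 10000 in both P0 sums and 0.130 to 0.396 in the adult, loop of Henle markers at 0.269 to 0.339 and 0.944 to 0.994, and DCT markers at 0.287 to 0.297 and 0.649 to 1.38. In the loop of Henle sums, nephron progenitor markers were at 0.675 to 0.753 at P0 and 0.119 to 0.215 in the adult, and DCT markers at 0.528 to 0.533 and 1.58 to 2.32. The part of these shifts in the lower adult levels of Nphs1, Ptpro and Inf2 was not tested.

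The calls of Synpo and Podxl went both ways over the clusters, and most did not hold when a P0 sample was left out. Synpo was higher in adult endothelial cells (3.08 and 2.98 against 4.00, 4.59 and 5.24, log2 difference 0.63 ± 0.139), stroma 1 (0.48) and stroma 2 (0.59), and lower in the connecting tubule (-1.83), the DCT (-1.27), the loop of Henle (-0.74) and principal cells (-0.69). In the endothelial sums endothelial markers were at 7.43 to 7.57 open calls per 10000 at P0 and 10.5 to 11.9 in the adult, and the podocyte list at 2.25 to 2.46 and 2.90 to 3.49, with DCT markers at 0.535 to 0.569 and 0.9996 to 1.11. In the connecting tubule DCT markers were at 0.421 to 0.554 and 2.36 to 3.83, and the podocyte list at 1.80 to 1.96 and 1.05 to 1.39. Loop of Henle markers in their own cluster were at 0.991 to 1.25 and 4.396 to 5.27, and principal cell markers in theirs at 0.459 to 0.503 and 1.39 to 1.67.
Podxl was higher in adult endothelial cells (0.50 ± 0.142) and stroma 1 (0.64), and lower in the connecting tubule, the loop of Henle, principal cells (-1.76 ± 0.232) and the PCT. In the stroma 1 sums, endothelial markers were at 1.24 to 1.26 open calls per 10000 at P0 and 1.43 to 2.62 in the adult, stroma markers at 1.60 to 1.62 and 0.748 to 1.23, DCT markers at 0.235 to 0.280 and 1.08 to 1.42, and proximal tubule markers at 0.513 to 0.677 and 0.941 to 3.64. In the stroma 2 sums, stroma markers were at 1.69 to 1.77 and 2.05 to 2.37, and DCT markers at 0.267 to 0.269 and 0.516 to 0.863. In the PCT sums, proximal tubule markers were at 5.18 to 5.39 and 6.24 to 8.44, and DCT markers at 0.954 to 0.977 and 1.51 to 2.00. The part of these marker shifts in the stage differences of Synpo, Podxl and Magi2, and of Actn4 in stroma, was not tested. Without P0 sample 1 and without P0 sample 2 alike, the calls of Synpo and Podxl in endothelial cells and stroma ended (adjusted p from 0.0723 to 0.329). Magi2 was higher in the adult PCT (0.53 ± 0.133, with adjusted p = 0.115 and 0.155 without P0 samples 1 and 2) and lower in 5 clusters, Plce1 was lower in stroma 1 (-0.59) and stroma 2 (-1.09), and Cd2ap differed in principal cells (0.54) and in no other cluster at this threshold.

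**Figure D5:**
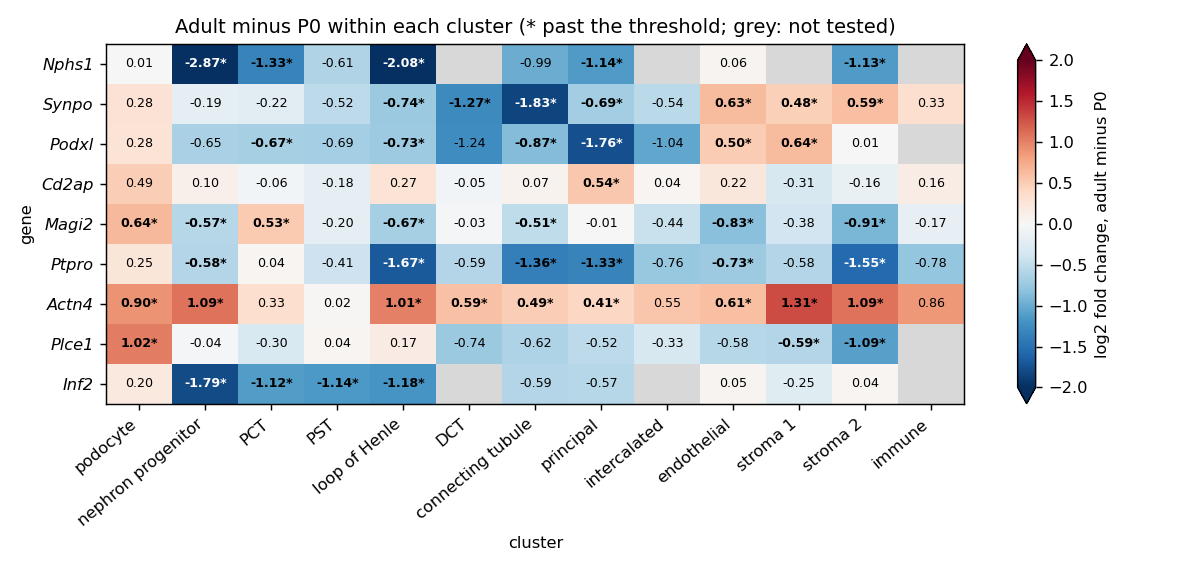
Log2 difference of adult minus P0 for each of the 9 genes (rows) in every cluster in which it was tested (columns), with an asterisk at an adjusted p under 0.05 and grey where not tested. Actn4 is at or above 0 in all clusters, and Nphs1 is at about 0 in podocytes and reaches -2.87 in nephron progenitors.

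Whether the stage difference in podocytes departed from that in the other clusters was tested as an interaction, with the sample as a block, over 27653 genes. It was more positive in podocytes for 7 of the 9 genes, where 1.33% of all genes were called in that direction. The interaction was largest for Nphs1 (log2 difference of differences 1.32 ± 0.255, adjusted p = 0.00047) and Plce1 (1.24 ± 0.243, 0.00059), followed by Ptpro (0.97 ± 0.179, 0.00024), Magi2 (0.90 ± 0.160, 0.00012), Inf2 (0.77 ± 0.206, 0.0292), Podxl (0.72 ± 0.177, 0.0118) and Synpo (0.57 ± 0.151, 0.0270). For Nphs1 the difference within podocytes was 0.0091, and the 5 other clusters that passed were all lower in the adult. Actn4 (0.17 ± 0.139, adjusted p = 0.756) and Cd2ap (0.47 ± 0.210, 0.348) did not pass. Over all genes, too, fewer were called more positive in podocytes when a P0 sample was left out. Without P0 sample 1, 1 of the 9 genes was called, and without P0 sample 2, 3 were, while the difference stayed positive for all 9 genes in every alternative. Without the sample block 5 were called, Synpo and Inf2 being lost, where 261 of all 27653 genes were more positive in podocytes. The median over all genes was -0.081, and 0.045 with DESeq2 size factors.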

How the data were processed

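The authors prepared 5 snATAC-seq libraries of whole mouse kidney, processed them with Cell Ranger ATAC 1.1.0 on mm10, removed nuclei by fragment number, promoter ratio and mitochondrial share, corrected for sample with Harmony, clustered with SnapATAC, and called peaks with MACS2 on the pooled nuclei of each cluster before merging them. The deposited nucleus by peak matrix holds counts binarised to 1, and 89197 entries stored as 0 were dropped. Doublet removal is not given in the sources used here for these libraries, and no caller was run. Samples held 3361 to 7129 nuclei and 16980853 to 43794155 open calls, and the 13 named clusters were taken from the authors' annotation.

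Peaks were assigned to genes by overlap with the gene body and 2 kb upstream (GENCODE M21), and a peak in several windows counted for each. Open calls were summed per sample and cluster (at least 20 nuclei) and tested over all peaks or genes with edgeR 4.0.16 (quasi-likelihood, TMM, filterByExpr, Benjamini-Hochberg at 0.05, R 4.3.3). Since nuclei are no replicates, p-values of the stage fits within a cluster measure the spread between samples. Each sample was taken as a separate sample of its stage. The interaction and the comparison of podocytes with other clusters had the sample as a block. Their p-values and SEs measure the spread left among cluster sums within samples, pooled over the clusters. Podocytes against the mean of the 12 other clusters, with the sample as a block, called 45 of the 87 members' peaks fitted higher and 2 lower in podocytes. Of all 77118 peaks fitted, 8963 were called higher and 6474 lower. As the clusters come from the same nuclei, and a peak could pass the count filter through podocytes alone, this is no independent test. The script was tested on simulated data. Alternatives were DESeq2 1.42.0, its size factors, no filter, at least 50 nuclei, thinning to 1000 open peaks, other gene windows, no block and leaving out each sample (without a P0 sample, every stage test has 1 newborn sample, assumed to vary like the adult ones). Named peaks were, per gene, the one over or nearest the start, the one with the largest podocyte lead, and the stage peak with the largest called difference; a peak over internal transcript starts (Synpo), the most open Synpo peak and peaks of other clusters were added after their values were seen. From the gene list the 4 largest called differences were named, and from Nphs1's correlations the nearest genes. Some items that these rules would name are not reported here. Members, lists and tests were chosen with earlier results of these data known. Fold changes of the authors were not used. Sequences were read from the mm10 genome.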

Additional observations from a re-analysis of the deposited data

Results flagged for a closer look

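For 7 of the 9 genes the adult minus P0 difference was more positive in podocytes than the mean of the 12 other clusters, where 1.33% of all 27653 genes were. This was called by the interaction term of edgeR's quasi-likelihood test with the sample as a block. The podocyte marker list moved with stage in the same sums, and its part was not tested. The log2 difference of differences was 1.32 for Nphs1, the slit diaphragm's adhesion molecule, and 1.24 for Plce1. It was 0.97 for Ptpro, 0.90 for Magi2, 0.77 for Inf2, 0.72 for Podxl and 0.57 for Synpo. For Plce1 and Magi2 the podocyte difference itself passed the test (1.02 and 0.64). For the other 5 it did not. Over the alternatives tried, the adjusted p ran from 0.00012 to 0.164 for Nphs1, from 1.9e-05 to 0.111 for Plce1, from 7.2e-06 to 0.0604 for Ptpro, from 4.7e-06 to 0.0992 for Magi2, from 0.0064 to 0.497 for Inf2, from 0.0015 to 0.328 for Podxl and from 0.00056 to 0.358 for Synpo.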

How the results depend on the processing

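Of 107 alternative values for the 9 members in podocytes, 86 had the same direction and side of the threshold, and of 72 for the interaction 56 did. The cause of the exceptions was not tested unless named. Calls over all genes in podocytes were 1000 higher and 887 lower in the adult, of 16051 tested. They were 283 and 134 with DESeq2, 85 and 95 of 6781 after thinning, and 163 and 168 of 12316 within 2 kb of the start. The 3 gene calls between P0 and adult podocytes became 1 after thinning to 1000 open peaks and 0 with peaks within 2 kb of the start, and ran from 2 to 4 with a sample left out. The 6 peak calls became 2 with DESeq2, 3 with at least 50 nuclei (which leaves 1 adult sample, assumed to vary like the others) and 0 after thinning, where 7 of the 38 members' peaks and 1 of the 6 called ones had enough calls to be tested, and ran from 1 to 6 with a sample left out. The 7 interaction calls ran from 1 to 6 with a sample left out, the 45 calls in other clusters from 17 to 57, and the 48 peaks estimated at least 2-fold higher in podocytes, whatever their p, from 44 to 64, with 105 in the P0 samples alone. Of the gene list, 16 calls became 5 with DESeq2, 9 with at least 50 nuclei, 3 after thinning and 2 within 2 kb of the start, and ran from 2 to 15 with a sample left out. The calls in other clusters were most without P56 sample 1. There more of all genes were called as well, in every cluster but the PST and immune cells. In the loop of Henle 7921 were higher and 8397 lower of 25694, against 5991 and 7553 of 25583 with all samples. The 105 peaks in the P0 samples alone were of 185 members' peaks fitted, where the 48 were of 87. With a sample left out 73 to 113 were fitted. The share of all peaks at least 2-fold higher was not counted in these alternatives. Without the replicate block, 5 members' interactions were called, and 48 podocyte peaks were estimated at least 2-fold higher (44 called higher at any size, where 7977 of all 77118 peaks were). Samples of P0 and adult share only a number, so no pairing across stages was made.

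The log2 difference of Nphs1, 0.0091, was -0.029 with no filter, -0.29 with at least 50 nuclei, -0.083 after thinning, -0.075 within 2 kb of the start and -0.085 to 0.28 with a sample left out. Synpo was at -0.020 after thinning, and Podxl and Ptpro at -0.17 and -0.20 within 2 kb of the start. Over all genes tested in podocytes, 1000 were higher and 887 lower in the adult with edgeR and 283 and 134 with DESeq2. Over all peaks these were 821 and 476 with edgeR, 405 and 89 with DESeq2, and 6 and 0 after thinning, with 2910 peaks tested. With no filter the balance turned, to 786 higher and 5269 lower peaks and 1055 higher and 1439 lower genes. Of the members' peaks 4 were then higher (1 of Actn4, 1 of Plce1 and 2 of Magi2) and 2 lower, the latter at the Podxl start (log2 difference -0.89, against -0.32 with the filter) and in Magi2 at chr5:20701650-20703087 (-1.36 against -0.78). With 39 to 157 podocyte nuclei in an adult sample, single peaks of low share could not be compared at this depth.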
